A study of Mus musculus with 12 samples.

Results

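The 7 sirtuin genes of the mouse, Sirt1 to Sirt7, were examined for binding of MOF in visceral white adipose tissue (WAT). Members were taken by name from the GENCODE M21 annotation, and all 7 were found among 21938 protein-coding genes on chromosomes 1 to 19, X and Y. A peak was counted at a sirtuin gene when it touched the gene body or any annotated transcript start was at most 3 kb away. By this rule 12 of the 19773 peaks of Mof+/+ WAT lay at the 7 genes. Of the 731 peaks of Mof+/- WAT, 0 did.

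Sirtuins are enzymes that use NAD+ to remove acetyl and other acyl groups from lysines, so their activity follows the energy state of the cell. SIRT1, SIRT6 and SIRT7 are mainly nuclear, SIRT2 is mainly cytoplasmic, and SIRT3, SIRT4 and SIRT5 are mitochondrial. MOF, also called KAT8, places acetyl groups on histone H4, including the lysine at which SIRT1 and SIRT2 are known to remove them. In fat tissue SIRT1 is known to restrain PPARγ and to favour the release of stored lipid.

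The series measured MOF on chromatin by chromatin immunoprecipitation and sequencing (ChIP-seq) in C57BL/6 mice that were 8 weeks old and fed a standard diet. Mof+/+ mice carry 2 copies of the Mof gene, and Mof+/- mice carry 1 copy in all tissues. For each genotype the labels list 2 libraries of MOF ChIP (abcam antibody ab200660), 2 of histone H3 ChIP and 2 of input DNA, 12 in all in 6 groups, while the design text speaks of 2 control and 3 Mof+/- animals. A single peak list per genotype was analysed, without values per library, so the spread between animals is unknown and no test between genotypes was made.

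The unit of strength was the fold enrichment of the peak caller, which divides the fragments over the summit of a peak by the local input background after a pseudocount of 1 is added to both. Whole fragment numbers were recovered from it, and the 95% intervals given below are exact Poisson intervals on these fragments with the background held fixed. They cover counting error only. Peaks were shallow in both lists, with a median of 16 fragments at the summit in Mof+/+ and 14 in Mof+/-. The lowest background was 3.52 fragments in Mof+/+ and 2.26 in Mof+/-, and the weakest listed peak had a −log10 p-value of 3.25 in Mof+/+ and 4.72 in Mof+/-.

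Kat8, the gene deleted from 1 chromosome in Mof+/- mice, had a Mof+/+ promoter peak of fold enrichment 4.20 (95% interval 2.58 to 6.51) and no Mof+/- peak, which does not check the genotype since the lists hold no expression. As a check of the tissue, Mof+/+ peaks were present within 1 kb of the start for 5 of 10 adipocyte genes (among them Adipoq and Plin1 but not Lep or Fabp4), 9 of 10 B cell genes, 7 of 10 T cell genes, 1 of 10 macrophage genes and 1 of 10 endothelial genes, where 41.0% of all protein-coding genes had one. The adipocyte count is near that share and says little about the tissue. The part that B and T cells of the tissue had in the sirtuin peaks was not tested. In bulk tissue, fewer cells of a type and less binding per cell cannot be told apart.

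The promoter sequences of 4 genes are shown because they span the range of what was seen: Sirt1 with the strongest peak over its start, Sirt7 with the next strongest, Sirt4 with the weakest, and Sirt2 with none. Each holds the 250 bases before and the 50 bases after a RefSeq start site on GRCm38, read 5′ to 3′ on the gene's own strand, with CpG pairs in capitals. They lie at chr10:63338986-63339285 (Sirt1, minus strand), chr11:120624965-120625264 (Sirt7, minus strand), chr5:115484248-115484547 (Sirt4, minus strand) and chr7:28766502-28766801 (Sirt2, plus strand).
Sirt1: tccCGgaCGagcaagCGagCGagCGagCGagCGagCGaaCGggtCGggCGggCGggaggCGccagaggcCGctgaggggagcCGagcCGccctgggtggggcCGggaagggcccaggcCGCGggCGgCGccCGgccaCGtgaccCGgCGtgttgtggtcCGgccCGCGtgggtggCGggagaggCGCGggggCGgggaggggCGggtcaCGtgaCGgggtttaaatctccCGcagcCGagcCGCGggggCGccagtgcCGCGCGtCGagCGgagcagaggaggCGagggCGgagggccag
Sirt7: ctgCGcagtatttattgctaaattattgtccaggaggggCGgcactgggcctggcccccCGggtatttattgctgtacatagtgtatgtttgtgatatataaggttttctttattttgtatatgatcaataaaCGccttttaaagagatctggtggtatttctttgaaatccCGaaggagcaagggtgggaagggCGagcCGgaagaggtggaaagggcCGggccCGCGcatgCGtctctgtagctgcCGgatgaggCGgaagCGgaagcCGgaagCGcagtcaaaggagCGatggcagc
Sirt4: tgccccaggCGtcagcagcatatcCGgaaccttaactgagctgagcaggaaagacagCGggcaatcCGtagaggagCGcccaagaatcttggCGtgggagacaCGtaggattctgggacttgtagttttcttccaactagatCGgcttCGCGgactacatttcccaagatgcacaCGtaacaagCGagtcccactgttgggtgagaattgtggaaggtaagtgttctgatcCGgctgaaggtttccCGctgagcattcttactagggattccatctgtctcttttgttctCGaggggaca
Sirt2: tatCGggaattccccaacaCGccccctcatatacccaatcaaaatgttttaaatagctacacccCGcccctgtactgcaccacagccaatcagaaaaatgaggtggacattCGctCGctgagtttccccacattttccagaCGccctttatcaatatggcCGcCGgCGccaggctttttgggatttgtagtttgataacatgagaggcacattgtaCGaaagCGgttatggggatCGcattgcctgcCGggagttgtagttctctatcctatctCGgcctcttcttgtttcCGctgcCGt

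The difference in CpG content can be read from the capitals. The Sirt1 promoter held 47 CpG pairs, more than 98.1% of 20150 RefSeq promoters of protein-coding genes. The Sirt7 promoter held 17, the Sirt2 promoter 16 and the Sirt4 promoter 15, all close to the median of 14. Sirt2 had no peak at its start, while Sirt4 and Sirt7, with similar numbers of CpG pairs, had one. The part of CpG content in this difference was not tested.

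A MOF peak lay over a start site of 6 of the 7 sirtuin genes in Mof+/+ WAT, and Sirt2 was the exception. The share of all genes with a peak over a start site is not given here, so this count has no background beside it. By the window of 1 kb around any start site, 7 of 7 genes had a peak, where 41.0% of all protein-coding genes did. Sirt2 entered this count through a weak intronic peak that lay 608 bp from an internal start site of a transcript that does not code for protein. When only start sites of protein-coding transcripts were used, the count was 6 of 7, against 40.2% of all protein-coding genes. By the wider rule with the gene body and 3 kb, 7 of 7 genes had a peak, against 44.5% of all. The plot of peaks by distance from the start shows the 6 peaks over start sites and the displaced group at Sirt2.

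**Figure D1:**
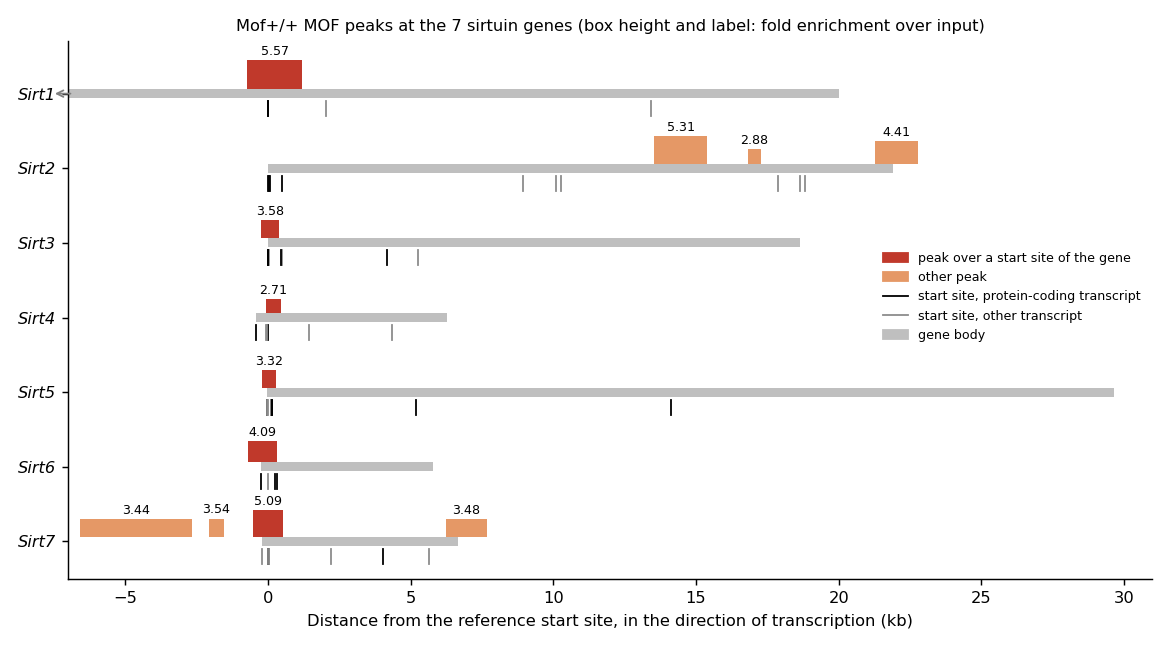
Position of the 12 Mof+/+ peaks at the 7 sirtuin genes. The x axis gives the distance from the RefSeq reference start site in kb, in the direction of transcription; grey bars are gene bodies (that of Sirt1 runs past the left edge), ticks are annotated start sites, and the height of a box and its label give the fold enrichment. Peaks in red cover a start site of the gene and peaks in orange do not, and the 3 peaks of Sirt2 all lie over 13 kb downstream of its reference start.

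Of the nuclear sirtuins, Sirt1, the NAD+-dependent deacetylase of histones and transcription factors, had the strongest peak of all 12. It lay at chr10:63337845-63339759 and was 1915 bp wide, with 25 fragments at the summit, a fold enrichment of 5.57 (95% interval 3.68 to 8.13) and a −log10 p-value of 13.5. Among the 10141 Mof+/+ peaks at promoters of protein-coding genes it was stronger than 91.9% and wider than 90.1%. The summit lay 459 bp downstream of the reference start, within coding sequence of Sirt1. A further annotated start of Sirt1 upstream, at position 63381704, had no peak, so all the binding listed at this gene was at the downstream start.

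Because the Sirt1 summit lay inside the gene rather than over the start, the 201 bases around it are shown too (chr10:63338476-63338676, minus strand, CpG pairs in capitals). They held 34 CpG pairs.
Sirt1 summit: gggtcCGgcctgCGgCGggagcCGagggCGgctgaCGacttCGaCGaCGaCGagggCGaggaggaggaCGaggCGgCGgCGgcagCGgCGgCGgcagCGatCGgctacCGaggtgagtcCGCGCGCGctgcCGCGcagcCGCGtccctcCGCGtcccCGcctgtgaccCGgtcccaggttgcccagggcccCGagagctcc

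Sirt7, a deacetylase of the nucleolus, had 4 peaks, the most of the family. The one over its start (chr11:120624479-120625552) held 22 fragments with a fold enrichment of 5.09 (95% interval 3.27 to 7.59), and its summit lay 341 bp downstream of the reference start in coding sequence. It also covered the start of the microRNA gene Mir6936. The other 3 peaks were weaker and each lay nearer to, or within, a neighbouring gene. A peak at the 3′ end of Sirt7 covered a start site of Pcyt2, which encodes an enzyme of phospholipid synthesis, at a fold enrichment of 3.48. Upstream, peaks of fold enrichment 3.54 and 3.44 had their summits in untranslated exons of Mafg, which encodes a small MAF transcription factor, and the second covered a start site of Mafg.

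Sirt6, a deacetylase of histone H3 that also acts in DNA repair, had 1 peak at chr10:81627241-81628263 with 19 fragments and a fold enrichment of 4.09 (95% interval 2.55 to 6.28). Its summit lay 155 bp downstream of the reference start. A start site of the neighbour Ankrd24, on the other strand, was within 1 kb of this peak but not under it.

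The peaks of the 3 mitochondrial sirtuins were narrower than the median promoter peak of 745 bp and of middle or low strength. That of Sirt3 was wider than the median of 609 bp over all Mof+/+ peaks. Sirt3, the main deacetylase of mitochondrial proteins, had a peak of 646 bp at chr7:140881926-140882571 with 20 fragments and a fold enrichment of 3.58 (95% interval 2.25 to 5.43). This peak also covered a start site of Psmd13, a proteasome subunit gene that is read in the opposite direction, so it cannot be assigned to 1 of the 2 genes. Sirt5, which removes succinyl and malonyl groups, had a peak of 503 bp at chr13:43365313-43365815 with 14 fragments and a fold enrichment of 3.32 (95% interval 1.91 to 5.42), with its summit at -109 bp from the reference start. Sirt4, which acts on enzymes of amino acid and fatty acid metabolism, had the weakest peak over a start. It covered 530 bp at chr5:115483845-115484374 with 13 fragments, a fold enrichment of 2.71 (95% interval 1.53 to 4.49) and a −log10 q-value of 1.52. Only 7.19% of promoter peaks were weaker than that of Sirt4.

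In order of fold enrichment the 6 peaks over starts were those of Sirt1, Sirt7, Sirt6, Sirt3, Sirt5 and Sirt4, with the 3 nuclear members above the 3 mitochondrial ones. In all 15 pairs of these peaks the 95% intervals overlapped, also for Sirt1 and Sirt4, with 25 and 13 fragments. Overlap of intervals is not a test of a difference, and with 1 list and no values per animal the order was not tested. Their median of 3.84 was close to the median of 3.76 over all promoter peaks (quartiles 3.15 and 4.64). The plot of fold enrichment shows this overlap.

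**Figure D2:**
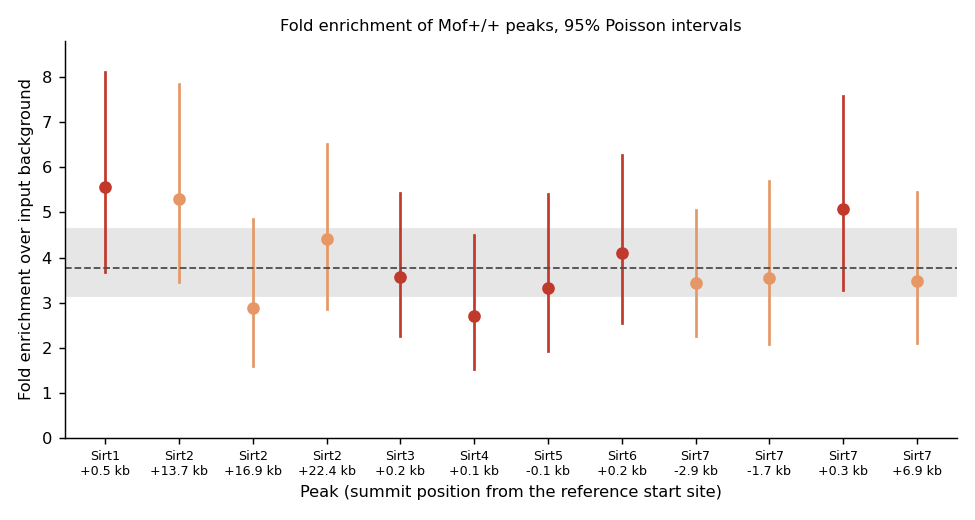
Fold enrichment over input background of the 12 Mof+/+ peaks, with the position of each summit from the reference start in kb under the gene name. Points are the listed values, bars are 95% Poisson intervals from the fragments at the summit, red marks peaks over a start site, and the dashed line and grey band are the median (3.76) and quartiles (3.15 and 4.64) of 10141 promoter peaks; the points run from 2.71 to 5.57 and the bars of all 6 red points overlap.

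Sirt2, whose product deacetylates tubulin and also histone H4, was bound in a different place. Its 3 peaks lay in the second part of the gene, and no protein-coding start of Sirt2 was closer than 13037 bp to any of them. The first, at chr7:28780291-28782153, was close in strength to the peak over the Sirt7 start, with 23 fragments and a fold enrichment of 5.31 (95% interval 3.45 to 7.86). Its summit lay in an intron 13729 bp downstream of the reference start. The second, at chr7:28783568-28784018, was weak, with 12 fragments and a fold enrichment of 2.88 (95% interval 1.59 to 4.86). The third, at chr7:28788041-28789527, ran past the 3′ end of Sirt2 over the start of the next gene, Rinl, with a fold enrichment of 4.41 (95% interval 2.86 to 6.53).

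The 201 bases around the summit of the strong intronic peak (chr7:28780381-28780581, plus strand, CpG pairs in capitals) held only 2 CpG pairs, against 34 at the Sirt1 summit.
Sirt2 intronic summit: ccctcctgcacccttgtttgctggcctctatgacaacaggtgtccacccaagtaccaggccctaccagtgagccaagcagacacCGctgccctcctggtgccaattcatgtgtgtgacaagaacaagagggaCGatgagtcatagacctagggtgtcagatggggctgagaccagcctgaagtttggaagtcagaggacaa
Over their whole widths the 3 Sirt2 peaks held 8.07 to 13.4 CpG pairs per kb, below the median of 24.5 over all Mof+/+ peaks. The 6 peaks over sirtuin starts held 28.3 to 107.

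The start of Sirt2 lay in an interval of chromosome 7 without Mof+/+ peaks, from 28444703 to 28780290, which was 336 kb long. The interval held the starts of 15 protein-coding genes, among them Nfkbib, which is read away from Sirt2 on the other strand, Sars2, Mrps12 and Pak4. Of 19560 intervals between neighbouring peaks on the autosomes, 85 held more starts. The 15 include Sirt2 itself, the interval was chosen because it holds the start of Sirt2, and intervals differ in length. The rank therefore does not measure how rare such an interval is. On the other side, 13 Mof+/+ peaks and 2 Mof+/- peaks lay within 30 kb downstream of Sirt2, while 0 of either lay within 30 kb upstream. The other 6 genes had 1 to 4 Mof+/+ peaks within 30 kb upstream, 0 to 2 within 30 kb downstream, and no Mof+/- peak on either side. These counts include peaks that cross the edge of a gene. The only upstream peak of Sirt3, and likewise of Sirt5, was the peak over its own start. The upstream counts of Sirt6 and Sirt7 also include their start peaks, and the downstream count of Sirt2 includes its peak over Rinl.

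The content of CpG pairs tracked the presence of a peak over all promoters, and the sirtuin promoters were read against it. The 7 genes have 9 promoters in the RefSeq table, with 15 to 47 CpG pairs, and 8 of the 9 had a Mof+/+ peak within 1 kb. Of all promoters with at least 15 CpG pairs, 66.0% had one, compared with 40.6% of all promoters regardless of CpG content. The share rose over the CpG classes from 5.92% of promoters with 0 to 4 pairs to 72.3% of those with 30 or more. A comparison of the family with all protein-coding genes therefore includes a difference in CpG content. Mof+/- peaks lay within 1 kb of 1.73% of the promoters with at least 15 CpG pairs and of 0 of the 9 sirtuin promoters.

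**Figure D3:**
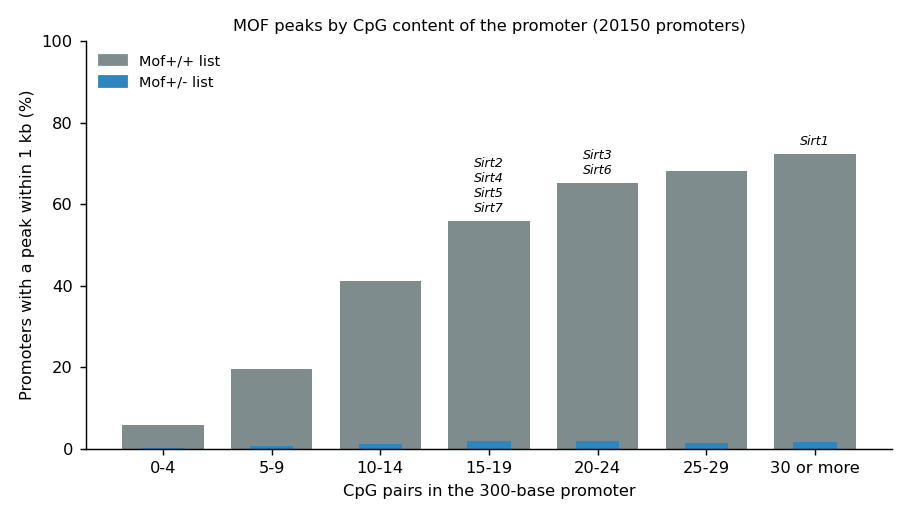
Share of 20150 RefSeq promoters with a MOF peak within 1 kb of the start site (y axis, percent), by the number of CpG pairs in the 300 bases of the promoter (x axis). Wide grey bars are the Mof+/+ list and narrow blue bars the Mof+/- list, and the names above the bars mark the class in which the promoters of each sirtuin gene lie; all sirtuin promoters fall in classes where the Mof+/+ share is 55.9% or more.

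Several short motifs were searched in the promoters on both strands, and matches of different motifs could overlap. They were the GC box GGGCGG, the ETS motif CCGGAAG, the CCAAT box CCAAT, the NRF1 core TGCGCA, the YY1 core ATGGCGG, the E-box CACGTG, the CRE TGACGTCA and the TATA box TATAAA. The GC box was present in 6 of the 9 sirtuin promoters, at every gene but Sirt4, with 6 matches in the Sirt1 promoter, and in 47.8% of all promoters. The ETS motif was found in 3 of the 9, at Sirt3, Sirt6 and Sirt7, and in 11.9% of all promoters. The CCAAT box was found in 3 of the 9, at Sirt2, Sirt3 and Sirt5, and in 37.8% of all promoters. The E-box was found 2 times at Sirt1 (8.03% of all promoters) and the NRF1 core once at Sirt7 (9.96%). No sirtuin promoter held the TATA box (12.1%), the CRE (2.31%) or the YY1 core (5.38%). Among promoters with a Mof+/+ peak the GC box was present in 68.9%, the ETS motif in 20.9%, the CCAAT box in 37.5%, the NRF1 core in 15.1%, the E-box in 10.7%, the YY1 core in 9.43%, the TATA box in 5.47% and the CRE in 3.51%. Among those without a peak the GC box was present in 33.3%, the ETS motif in 5.74% and the TATA box in 16.7%. These are matches of letters and not tests of binding by any factor.

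The chromatin had been cut with CviKI-1, an enzyme whose sites read RGCY (a purine, then G and C, then a pyrimidine). Sites of this enzyme were at 15.6 to 31.7 per kb under the 12 sirtuin peaks, and the median over all Mof+/+ peaks was 21.2 (quartiles 15.7 and 26.9). Among the peaks over starts, those of Sirt7, Sirt3 and Sirt1 held 31.7, 31 and 29.2 sites per kb, that of Sirt5 held 23.9, and those of Sirt4 and Sirt6 held 17.0 and 15.6. Of the 12 peaks, 10 had more sites per kb than the median of all peaks and 7 more than the upper quartile. The part of the site density in these values was not tested.

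In Mof+/- WAT no peak was listed at any sirtuin gene. By the window of 1 kb the count was 0 of 7, where 1.32% of all protein-coding genes had a Mof+/- peak, and by the wider rule it was again 0 of 7, where 1.89% did. With so low a share over all genes, a count of 0 among 7 is close to the background and says little about sirtuins in particular. The nearest Mof+/- peak to a member lay 13.8 kb past the end of Sirt2, with a fold enrichment of 4.37, and the next nearest was 116 kb from Sirt7. For Sirt6 the distance was 439 kb, and for Sirt1, Sirt3, Sirt4 and Sirt5 it was 2.63 to 5.09 Mb.

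Strength was related to whether a Mof+/+ promoter peak overlapped a Mof+/- peak. Of all 10141 promoter peaks 2.92% did, and the share was 1.78% for those of fold enrichment under 3, 4.89% from 5 to under 6, and 40.0% at 8 or more. The 6 sirtuin peaks over starts lay in the range of 2.71 to 5.57. Of the 8589 promoter peaks in that range, 162 (1.89%) overlapped a Mof+/- peak. The plot of overlap by strength places the members in the low classes.

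**Figure D4:**
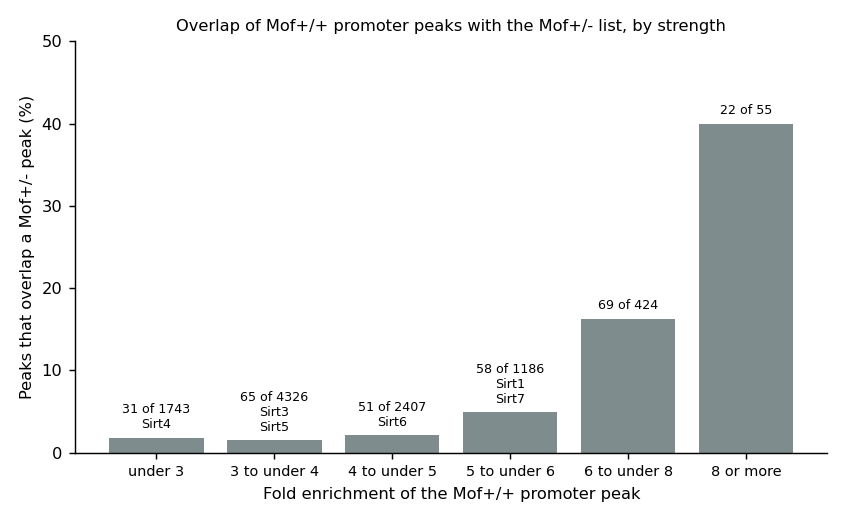
Share of Mof+/+ promoter peaks that overlap a Mof+/- peak by at least 1 bp (y axis, percent), by the fold enrichment of the Mof+/+ peak (x axis). Labels give the number of overlapping peaks of all peaks in the class and the sirtuin genes whose peak over a start falls in it; the 6 sirtuin peaks lie in classes with shares of at most 4.89%, below the 16.3% and 40.0% of the 2 strongest classes.

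The depth of the lists limits what an absent Mof+/- peak says. The listed background was scaled by the ratio of the lowest backgrounds of the lists, and the fragments needed to reach the weakest Mof+/- peak's p-value were computed for each member. With the same plain ratio of fragments to background as in Mof+/+ (no pseudocount), the peak of Sirt1 would hold 16.1 fragments where 11 are needed, that of Sirt7 14.1 where 11 are needed, and that of Sirt6 12.2 where 11 are needed. For Sirt3 the value was 12.8 fragments where 13 are needed, for Sirt5 8.99 where 11 are needed, and for Sirt4 8.35 where 12 are needed. The expected numbers at Sirt3, Sirt4 and Sirt5 thus fall short of the limit, by less than 1 fragment for Sirt3, and the absence of a Mof+/- peak there does not tell lower from unchanged binding. Over all 12 peaks, 6 expected numbers reached the limit and 6 did not. The values are expected numbers without their counting error. A peak of unchanged ratio could therefore also be missed by counting error at Sirt6, Sirt7 and Sirt1, and one at Sirt3 could be called. The ratios were taken at summits of peaks that had passed the Mof+/+ call, which can make them too high. No allowance was made for this. The lists hold no fragments for places without a called peak, so whether binding at Sirt1, Sirt6 and Sirt7 differed between genotypes, and by how much, was not tested.

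The genes around the sirtuins in their pathways were counted in the same way, from 3 lists of 18 genes each. Of genes of NAD metabolism, which make and consume the cofactor of the sirtuins, 12 of 18 had a Mof+/+ peak within 1 kb and 0 had a Mof+/- peak, beside 41.0% and 1.32% of all protein-coding genes. A Mof+/- count of 0 among 18 is near that background. The highest were Cd38, which encodes an NAD+-consuming enzyme, at 6.19 (95% interval 4.16 to 8.91), Slc25a51, the mitochondrial NAD+ carrier, at 5.31 (3.45 to 7.86), Parp1, which uses NAD+ in DNA repair, at 5.12 (3.35 to 7.51), and the mitochondrial NAD kinase gene Nadk2 at 5.09 (3.27 to 7.59). Nampt, the rate-limiting enzyme of NAD+ salvage, had a peak of 4.42 (2.75 to 6.79). Bst1, Naprt, Nmnat2 and Nmrk2 had none within 1 kb, and of these Bst1 had 1 by the wider rule.

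Among nuclear regulators and substrates of sirtuins, Mof+/+ promoter peaks were found at 14 of 18 genes and Mof+/- peaks at 1, beside 41.0% and 1.32% over all genes. Gabpb1, a subunit of an ETS family activator of mitochondrial genes, had the highest at 7.25 (95% interval 5.08 to 10.0). The acetyltransferase gene Ep300 followed at 7.08 (4.88 to 9.96), and Foxo3 and Hif1a were both at 5.97 (3.98 to 8.65). Trp53, the gene of the tumour suppressor p53 and a known SIRT1 substrate, was the 1 gene of these lists with a peak in both genotypes, at 4.44 (2.91 to 6.52) in Mof+/+. Crtc2, Pparg, Ppargc1a and Suv39h1 had no Mof+/+ peak within 1 kb. Pparg and Ppargc1a each had 1 Mof+/+ peak within 3 kb of a start site, while Crtc2 and Suv39h1 had 0 by the wider rule with the gene body as well. By ChIP-qPCR, a separate measurement in WAT, the study reports MOF at the main Pparg isoform's promoter and no enrichment at that of Ppargc1a. Pparg is also among the adipocyte genes counted above.

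Among mitochondrial substrates, Mof+/+ promoter peaks were found at 13 of 18 genes and Mof+/- peaks at 0, again beside 41.0% and 1.32% over all genes, so that the Mof+/- count is near background. The highest were Slc25a5, an ADP/ATP carrier, at 5.53 (95% interval 3.62 to 8.12), and Glud1, glutamate dehydrogenase, at 5.41 (3.63 to 7.79). Idh2, isocitrate dehydrogenase, stood at 5.09 (3.27 to 7.59) and Acss1, acetyl-CoA synthetase, at 4.99 (3.24 to 7.38). Acadm, Cps1 and Ndufa9 had none. Cps1 and Otc, which serve the urea cycle in liver, were both without a peak within 1 kb.

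The strongest promoter peak of a gene had a median fold enrichment of 3.58 over the 7 sirtuin genes, 4.53 over the NAD list, 4.74 over the nuclear list and 4.56 over the mitochondrial list, and 3.98 over the 9003 protein-coding genes with such a peak. The sirtuin value includes the weak intronic peak of Sirt2 and was 3.84 with start sites of protein-coding transcripts alone and 4.09 with a window of 3 kb. The other medians were not recomputed in these settings. The medians were not ranked or tested. Among single genes, the intervals of Gabpb1 and Ep300 lay above those of Sirt4 and of the weak Sirt2 peak, for Ep300 and Sirt2 only just (4.88 against 4.86). These are the highest genes of the 3 lists set against the lowest sirtuin genes, picked after their values were seen. They show no difference between the lists. The plot of gene lists sets the counts beside the shares over all genes.

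**Figure D5:**
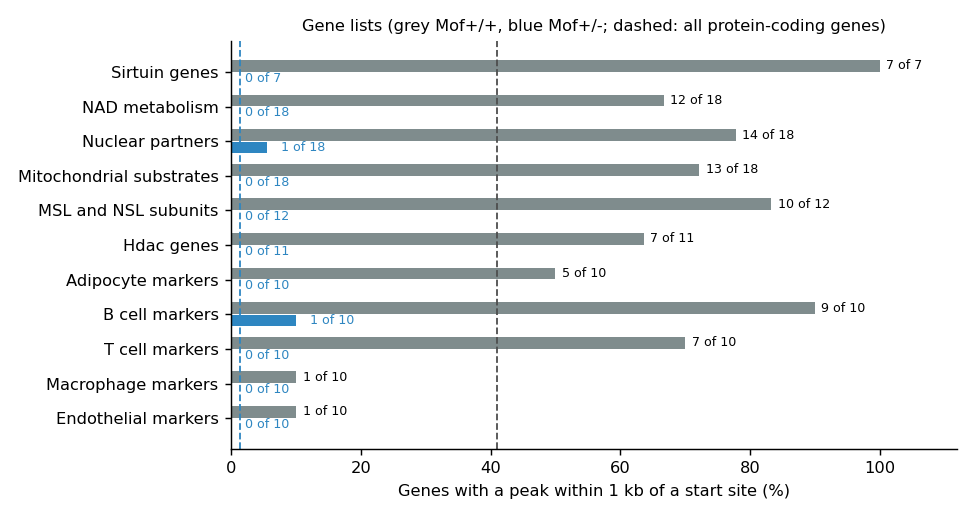
Share of the genes of each list with a peak within 1 kb of a start site (x axis, percent), grey for the Mof+/+ list and blue for the Mof+/- list, with the counts beside the bars. Dashed lines mark the shares over all 21938 protein-coding genes, 41.0% for Mof+/+ and 1.32% for Mof+/-; the sirtuin genes are at 7 of 7 and 0 of 7.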

How the data were processed

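MOF ChIP-seq peaks of visceral WAT were analysed as 1 deposited list per genotype. According to the methods, the authors mapped reads to GRCm38/mm10 with snakePipes and called peaks with MACS2 (2.1.1.20160309.3) against input at a q-value of 0.1. The deposited fold enrichment is a ratio of fragments at the summit to input background, with a pseudocount of 1 added to both. The caller also wrote the deposited significance at the summit, as −log10 p-value and as −log10 q-value. Whether replicates were pooled is not given in the sources used here. The methods also describe a merge of peaks at a distance of 1000 bp. The lists analysed here do not show that merge, since some of their peaks lie closer together. H3 libraries were not used. The MOF antibody of the labels differs from that in the study's reporting summary.

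Genes and start sites came from GENCODE M21, promoter sequence from RefSeq (GRCm38.p6). Both peak lists cover chromosomes 1 to 19, X and Y in all counts over genes. Fragments were solved as whole numbers from the fold and the p-value (tolerance 0.001 on −log10 p) for 19749 of 19753 Mof+/+ and 712 of 716 Mof+/- peaks on these chromosomes. The solver and the overlap search were tested on simulated data. Python 3.11.15, numpy 2.4.6, pandas 2.3.3 and scipy 1.17.1 were used. Promoter peaks lay within 1000 bp of a start site. The peak lists give no values per library, so no test between genotypes was made here. Counts of genes stand beside the share over all protein-coding genes where that share is given. The sirtuin members and all gene lists were chosen with earlier results of these data known. Of each pathway list the text names the 4 genes with the highest Mof+/+ promoter peak, those with a Mof+/- peak, and up to 4 without a Mof+/+ peak in alphabetical order, except 1 gene that is not reported here. Nampt and Otc, Adipoq, Plin1, Lep and Fabp4, and the neighbours of Sirt2 were named after their values were seen. Alternatives were other start-site windows and sets, the summit as position, stricter q-values, merged peaks, and a Mof+/+ list cut to the size of the Mof+/- list.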

Additional observations from a re-analysis of the deposited data

How the results depend on the processing

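Of 55 alternative values of the counts and of the median, 48 stayed within 1.5 times the main value and 7 moved. When the Mof+/+ list was cut to its strongest peaks, as many as the Mof+/- list holds, 0 sirtuin genes were left within 1 kb, 0 by the wider rule and 0 peaks in all, with 1 gene of NAD metabolism, 4 nuclear partners and 0 mitochondrial substrates. Of all protein-coding genes, 3.12% had a peak of that list within 1 kb and 3.62% by the wider rule, so 0 of 7 is near background. The median could not be computed there. With peaks kept only up to a q-value of 0.001, the count within 1 kb was 4 of the 7 sirtuin genes, without Sirt2, Sirt4 and Sirt5 (31.3% of all genes), and at 0.01 it was 5 (37.3%). With a window of 500 bp, protein-coding start sites or RefSeq start sites (the last chosen after seeing the data) it was 6, since Sirt2 drops out. For protein-coding start sites the share over all genes was 40.2%. Of all RefSeq promoters, counted as promoters and not as genes, 40.6% had a peak within 1 kb. No share over all genes is given for the window of 500 bp. Of the 12 peaks, 10 were left when peaks within 1000 bp were merged and 9 had a start site of the sirtuin gene as the nearest (also chosen after seeing the data). The Mof+/- settings only narrow the rule or the list, so their count of 0 could not rise and says nothing on stability, and these 5 are among the 48. Of single genes, the value of Sirt2 alone moved, from 2.88 to 5.31 with a window of 3000 bp. No paired analysis was possible because neither peak list has replicate columns.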

Other observations

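The zinc-dependent deacetylases, the other enzyme family that removes acetyl groups from histones, had Mof+/+ peaks within 1 kb of a start site at 7 of 11 genes and Mof+/- peaks at 0, where 41.0% and 1.32% of all protein-coding genes had them. Hdac4, a class II enzyme, had the highest fold enrichment at 5.51 (95% interval 3.61 to 8.10), followed by Hdac7 at 5.31 (3.45 to 7.86). The class I genes Hdac1, Hdac2 and Hdac3 were at 3.96, 3.54 and 3.32. Hdac6, Hdac8, Hdac9 and Hdac11 had no peak within 1 kb. Their median of 3.54 was close to the 3.58 of the sirtuin genes. These genes were named after their values were seen.

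The subunits of the MSL and NSL complexes, in which MOF works, had Mof+/+ peaks within 1 kb at 10 of 12 genes and Mof+/- peaks at 0, beside the same shares of 41.0% and 1.32% over all genes. Kansl1, a scaffold of the NSL complex, was highest at 6.19 (95% interval 4.16 to 8.91) and Msl1, a scaffold of the MSL complex, stood at 5.31 (3.45 to 7.86). Msl3 and Kansl3 had none.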
